A study of Mus musculus with 8 samples.

Results

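Epcam and 9 other genes that mark simple epithelium were followed in whole fetal mouse lungs with and without occlusion of the trachea. The 10 genes are the adhesion genes Epcam and Cdh1, the simple keratins Krt7, Krt8, Krt18 and Krt19, and the claudins Cldn3, Cldn4, Cldn7 and Cldn18. They were found by gene symbol among the 55385 genes of the count tables. Epcam was the starting point because it was lower in the tracheal occlusion (TO) lungs of these same libraries, and the question was whether the other 9 genes followed it. The difference between TO and control lungs therefore chose the set, and the differences of the members are given below as a description and not as a test. How many of them passed a threshold is printed only beside the share of all genes that did.

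RNA of whole lungs from C57BL/6 fetuses was collected at E18.5 and sequenced, with 4 control and 4 TO lungs, called here by the replicate numbers of their labels. TO fetuses had been operated on through the uterine wall at E16.5, and the ligature closed the trachea together with a carotid artery and a jugular vein on one side. What was done to the control fetuses of the mRNA-seq is not given in the sources used here, so the effect of the occlusion and that of the vessel ligation or the surgery cannot be told apart. Controls 1, 2 and 4 and TO 2, 3 and 4, the specimens in the study's mRNA-seq display, form the comparison of 6 lungs that is given first, and all 8 lungs are given beside it. No reason is stated for the absence of control 3 and TO 1 from that display. Levels are in CPM, each gene's counts as a rate per library total after scaling by the trimmed mean of M values (TMM), and log2 fold changes (TO against control) come with the standard error (SE) of the edgeR fit.

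Read pairs on genes numbered 270078 in TO 1 and between 22822261 and 35002061 in the other 7 libraries. The member with the fewest counts, Cldn4, had 6 counts in TO 1 and 317 to 988 in the others. Markers of distal lung epithelium were present in every library, and the summed level of 10 alveolar type 2 (AT2) genes was 7177 CPM in TO 1 and 9610 to 21490 CPM in the other lungs. Several libraries also held RNA of genes that mark other tissues, and where that RNA came from was not tested. The 8 genes listed for stratified and thymic epithelium summed to 276 CPM in control 1, 252 CPM in TO 1 and 265 CPM in TO 4, but to between 11.2 and 18.7 CPM in the other 5 lungs, and hepatocyte genes to 798.8 CPM in control 1, 331 CPM in TO 4 and at most 82.8 CPM elsewhere. Skeletal muscle genes summed to 2757 CPM in TO 1 and to between 22.4 and 306 CPM elsewhere, and cardiomyocyte genes to 750.3 and 475 CPM in controls 1 and 2 and to 2459 CPM or more in the other lungs. The part of such RNA in the members' values was not tested. Fold changes without control 1 and TO 4, and without TO 1, are given below, for some members or as medians. No set left out all the lungs high in cardiomyocyte genes.

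Epithelial cells are held together by junctions. Epcam is a membrane glycoprotein found on nearly all simple epithelia, where it modulates adhesion and is known to bind and stabilize claudins, in particular claudin 7. Cdh1, or E-cadherin, is the core of the adherens junction. Keratins form filaments as pairs of a type II chain (here Krt7 and Krt8) and a type I chain (Krt18 and Krt19), and claudins line up in the tight junction, where they set which ions and how much fluid pass between cells. In the fetal lung this barrier holds the liquid that the epithelium secretes into the airspaces, and Cldn18 is the claudin best known from alveolar epithelium.

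In the 6 lungs all 10 members had a log2 fold change below zero, with a median of -0.27, in a table where 50.7% of 21859 tested genes lay below zero. No member passed an adjusted p of 0.1 in edgeR in the 6 lungs or in all 8, where 0% of all genes passed in either analysis, and none passed in DESeq2, where 44 of the 21859 genes (0.201%) did. With edgeR's p left unadjusted and a limit of 0.05, 3 of the 10 members were lower in TO against 2.07% of genes in the 6 lungs, and 6 of 10 against 0.918% in the 8 lungs. Without TO 4, 1 member, Epcam, passed the adjusted threshold in edgeR (adjusted p = 0.0689), as did 0.692% of genes. Since the set was chosen on this contrast and its members share cells, nothing is read from these shares. In whole-lung RNA, fewer epithelial cells and less of these mRNAs per cell cannot be told apart.

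**Figure D1:**
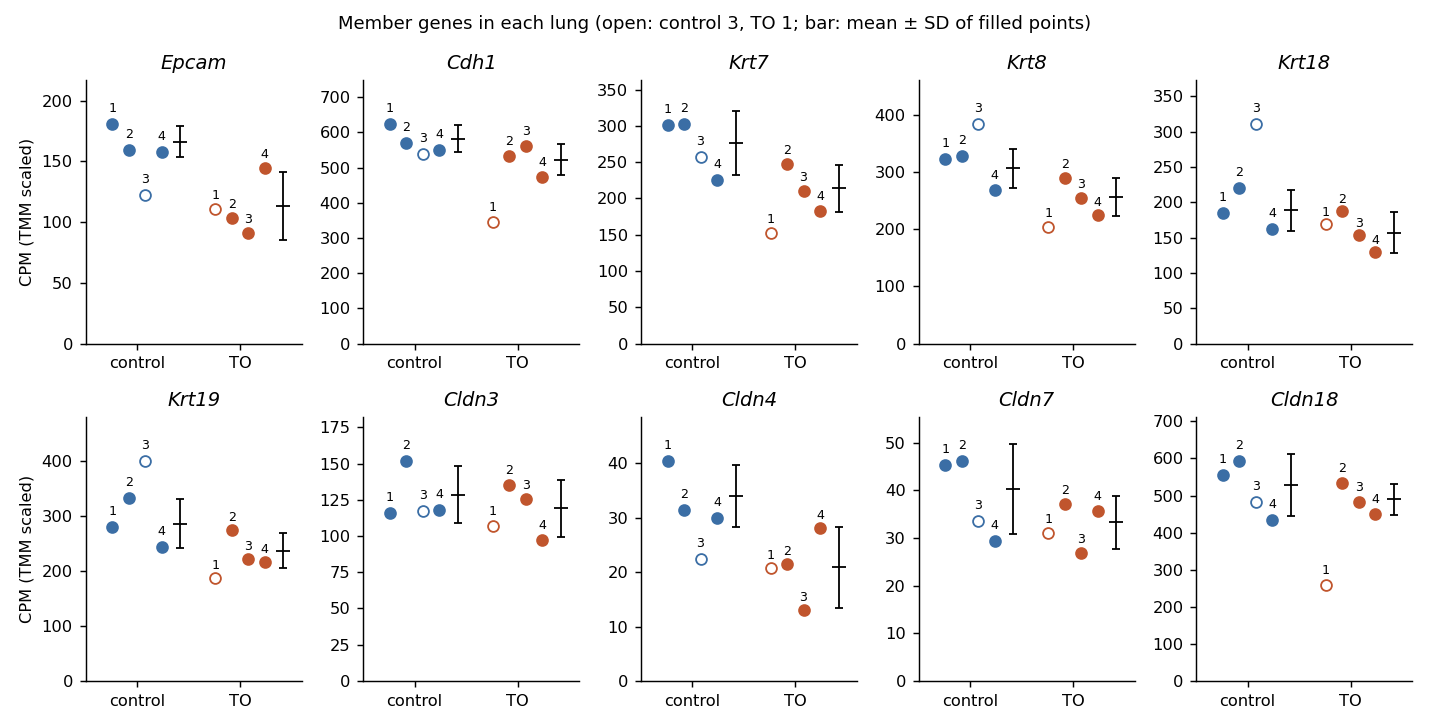
Level of each member gene in each lung in CPM (y axis from zero, one panel per gene), with controls in blue and TO lungs in orange, numbered by replicate; bars are the mean ± SD of controls 1, 2 and 4 and of TO 2, 3 and 4, and open points are control 3 and TO 1. In Epcam and Cldn4 the filled TO points lie below all filled control points, and in the other 8 genes they overlap.

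Epcam (chromosome 17, 87635979 to 87651129, plus strand, GRCm38) was at 181, 159.5, 123 and 158 CPM in controls 1 to 4 and at 110.4, 104, 91.3 and 145 CPM in TO 1 to 4. In the 6 lungs of the main comparison every TO lung was below every control lung, although TO 4 was only a little below control 4. Control 3, which is outside that comparison, was below TO 4, so the groups overlapped once all 8 lungs were counted. The means were 166 ± 12.9 CPM in control and 113 ± 27.9 CPM in TO (SD, n = 3 each), a log2 fold change of -0.55 (SE 0.17) in the 6 lungs and of -0.46 (SE 0.17) in the 8 lungs. The 32 counts of TO 1 gave a 95% exact binomial interval of 75.5 to 156 CPM for its level, which covers counting error only.

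Cdh1 (chromosome 8, 106603351 to 106670246, plus strand) was at 625, 570.4, 538 and 550.0 CPM in controls 1 to 4 and at 345, 533, 560.4 and 474 CPM in TO 1 to 4. TO 3, which had the lowest Epcam of all 8 lungs, had a Cdh1 level between those of controls 2 and 4. Its log2 fold change was -0.16 (SE 0.11) in the 6 lungs, with means of 582 ± 38.6 and 522 ± 44.4 CPM (SD, n = 3 each), and it was -0.03 without control 1 and TO 4, the libraries of the 6 with stratified epithelial genes, which leaves 2 lungs a group. It was -0.10 without control 1 alone and -0.09 without TO 4 alone. The ratio of Epcam to Cdh1 CPM, which compares the genes within a lung, was 0.290, 0.280, 0.228 and 0.287 in controls 1 to 4. It was 0.194 in TO 2 and 0.163 in TO 3, below all controls, but 0.305 in TO 4 and 0.320 in TO 1, above all controls.

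Epcam's promoter is shown because Epcam led the question, that of Cldn4 because its level tracked Epcam's across lungs, and that of Cldn3 because this neighbor of Cldn4 did not. Those of Krt8 and Krt18 are shown because the chains form a filament pair and their levels varied together. Each window covers 250 bases before to 50 bases after the transcription start in RefSeq (GRCm38.p6), written 5′ to 3′ on the strand of the gene. Capitals mark ACCGGT, a core found in binding sites of Grainyhead-like factors, and CAGGTG or its complement CACCTG, the E-box bound by Snail and Zeb factors. Epcam is the window chr17:87635729-87636028 (plus strand), Cldn4 chr5:134946885-134947184 (minus), Cldn3 chr5:134985964-134986263 (plus), Krt8 chr15:102004293-102004592 (minus) and Krt18 chr15:102027966-102028265 (plus).
Epcam: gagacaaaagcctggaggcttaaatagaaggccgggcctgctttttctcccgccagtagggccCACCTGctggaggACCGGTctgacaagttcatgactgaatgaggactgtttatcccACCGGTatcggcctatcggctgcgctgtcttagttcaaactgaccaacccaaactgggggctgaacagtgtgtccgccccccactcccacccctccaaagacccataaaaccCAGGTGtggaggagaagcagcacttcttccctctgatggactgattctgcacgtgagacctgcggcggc
Cldn4: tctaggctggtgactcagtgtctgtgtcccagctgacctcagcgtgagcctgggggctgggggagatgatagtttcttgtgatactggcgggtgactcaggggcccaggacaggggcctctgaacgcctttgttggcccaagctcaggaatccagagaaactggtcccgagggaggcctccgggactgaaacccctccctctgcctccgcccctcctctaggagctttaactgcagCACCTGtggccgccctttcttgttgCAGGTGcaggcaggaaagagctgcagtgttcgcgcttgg
Cldn3: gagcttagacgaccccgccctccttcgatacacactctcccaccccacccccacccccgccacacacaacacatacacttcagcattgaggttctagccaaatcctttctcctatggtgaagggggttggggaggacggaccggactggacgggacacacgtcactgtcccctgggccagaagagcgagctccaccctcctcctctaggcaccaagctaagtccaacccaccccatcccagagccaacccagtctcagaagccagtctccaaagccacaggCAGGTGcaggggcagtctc
Krt8: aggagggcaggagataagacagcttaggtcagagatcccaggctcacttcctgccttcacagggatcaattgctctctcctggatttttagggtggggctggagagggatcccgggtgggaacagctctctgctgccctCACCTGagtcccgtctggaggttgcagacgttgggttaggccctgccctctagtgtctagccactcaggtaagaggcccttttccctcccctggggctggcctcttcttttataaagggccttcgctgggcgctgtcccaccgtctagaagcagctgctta
Krt18: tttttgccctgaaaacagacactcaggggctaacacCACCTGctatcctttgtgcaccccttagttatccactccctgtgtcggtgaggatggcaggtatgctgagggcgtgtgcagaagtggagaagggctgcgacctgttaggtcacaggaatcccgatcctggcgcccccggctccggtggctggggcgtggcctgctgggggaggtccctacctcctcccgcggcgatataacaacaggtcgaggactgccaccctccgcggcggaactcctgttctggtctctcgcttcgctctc

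The Epcam window held ACCGGT starting 174 and 131 bases before the start site, and the E-box 187 and 19 bases before it. RefSeq windows were at hand for 8 of the 10 members, and ACCGGT was in that of Epcam alone among them, against 2.329% of all 32851 promoter windows on either strand. The longer Grainyhead-like motif AACCNGTT, in 2.088% of all windows, was in none of the 10 windows of these 8 genes. The E-box was in 7 of the 10 windows, against 20.21% of all windows. By gene, it was in a window of 7 of the 8 genes, all but Cldn18. Cldn4 carried it 14 bases before and 12 bases after its start, Cldn3 once in the first transcribed bases, and Cldn7 in its second window. These matches describe letters in a window and say nothing of binding.

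Among the type II keratins, Krt7 (chromosome 15, 101411043 to 101430313, plus strand), which is typical of ducts and airways, was at 302, 303, 257 and 226 CPM in controls 1 to 4 and at 152, 248, 211 and 183 CPM in TO 1 to 4. TO 2 was above control 4 and the other TO lungs were below every control. Its log2 fold change of -0.37 (SE 0.15) was the lowest of the keratins in the 6 lungs, from 277 ± 44.0 to 214 ± 32.2 CPM (SD, n = 3 each). The antisense gene Gm671 overlaps Krt7 and the libraries carry no strand, but it held at most 152 counts in any library.

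Krt8 (chromosome 15, 101996698 to 102004482, minus strand), the type II keratin of nearly all simple epithelia, was at 323, 328, 384 and 268 CPM in controls 1 to 4 and at 204, 289.8, 254 and 224 CPM in TO 1 to 4. Control 3 was the highest lung and TO 1 the lowest, and only TO 2 passed control 4. In Krt8 the log2 fold change was -0.26 (SE 0.13) in the 6 lungs and -0.41 (SE 0.15) in the 8 lungs, and -0.17 when TO 4 was left out of the 6. A processed copy, Krt8-ps, matches Krt8 at 98.62% over 941 bases, and at most 50 counts were assigned to it in any library.

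Krt18 (chromosome 15, 102028180 to 102032027, plus strand) is the type I partner of Krt8, and their genes lie 23.7 kb apart. It was at 184, 219.9, 311 and 162 CPM in controls 1 to 4 and at 169, 187, 153 and 129 CPM in TO 1 to 4. The groups overlapped, with control 4 below TO 1 and TO 2. TO differed from control by a log2 fold change of -0.27 (SE 0.16) in the 6 lungs and -0.47 (SE 0.20) in the 8 lungs, where control 3, the highest lung, is added. It ranged from -0.42 without TO 2 to -0.14 without control 2, and was -0.15 without TO 4.

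Krt19 (chromosome 11, 100140810 to 100148665, minus strand), a small type I keratin of simple and progenitor epithelia, was at 280.2, 333, 399.6 and 244 CPM in controls 1 to 4 and at 186, 274, 222 and 216 CPM in TO 1 to 4. As in Krt18, control 3 was the highest lung, and TO 2 was above control 4. The log2 fold change was -0.27 (SE 0.14) in the 6 lungs and -0.47 (SE 0.17) in the 8 lungs, and -0.14 without control 2. The ratio of Krt8 to Krt18 CPM was 1.49 to 1.75 in controls 1, 2 and 4 and 1.55 to 1.73 in TO 2 to 4, ranges that overlap. In control 3 it was 1.24 and in TO 1 it was 1.204, both lower.

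Control 3 thus stood out for these 3 keratins, at 126%, 165% and 140% of the mean of the other controls for Krt8, Krt18 and Krt19, but at 73.9% for Epcam and 66.2% for Cldn4. The same lung had the highest sum of 8 mesothelial marker genes, 589.8 CPM against 261 to 412 CPM in the other controls, with Msln at 436 CPM, and mesothelium also makes simple keratins. In TO 1 to 4 that sum was 217, 512, 464 and 244 CPM. Krt18 was there at 89.5%, 99.1%, 81.2% and 68.4% of the same control mean. Control 3 likewise had the highest sum of alveolar type 1 (AT1) markers, 4461 CPM. The part of either in its keratin levels was not tested.

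**Figure D2:**
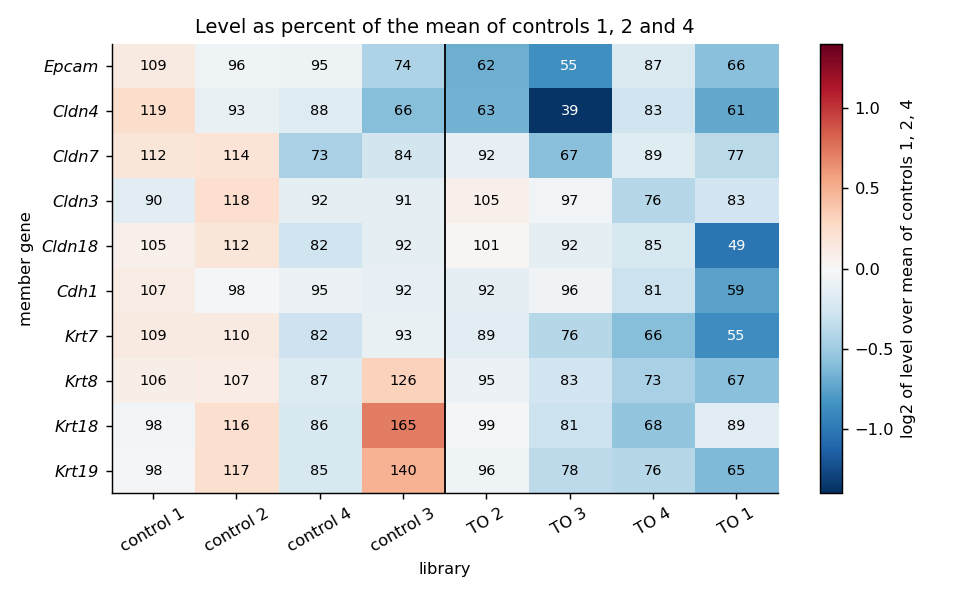
Level of each member (rows) in each lung (columns) as a percent of the mean of controls 1, 2 and 4, with color on a log2 scale. Control 3 is above 100 in Krt8, Krt18 and Krt19 and below it in the other members, and TO 3 is lowest of all lungs in Epcam and Cldn4.

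Of the claudins, Cldn4 (chromosome 5, 134945119 to 134946934, minus strand), a sealing claudin of lung epithelium, was at 40.4, 31.5, 22.5 and 29.96 CPM in controls 1 to 4 and at 20.7, 21.5, 13.1 and 28.1 CPM in TO 1 to 4. As for Epcam, every TO lung was below every control lung in the 6 lungs, while control 3 was below TO 4. The log2 fold change was -0.70 (SE 0.26), the lowest of the 10 members, with means of 34.0 ± 5.66 and 20.9 ± 7.50 CPM (SD, n = 3 each). It was -0.44 when TO 3 was left out, and -0.57 (SE 0.26) in the 8 lungs, which include TO 1 with 6 counts and a 95% exact binomial interval of 7.60 to 45.1 CPM. Epcam and Cldn4 were the 2 members whose groups did not overlap in the 6 lungs, and 5.82% of all genes had every TO lung below every control. In the 8 lungs no member met this, and 1.30% of genes did. No member had every TO lung above every control, as 5.10% of genes had in the 6 lungs and 0.710% in the 8 lungs.

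Cldn3 (chromosome 5, 134986214 to 134987472, plus strand), another sealing claudin, lies 39.3 kb from Cldn4 and did not share its pattern. It was at 116, 152, 118 and 118 CPM in controls 1 to 4 and at 107, 135, 125 and 97.4 CPM in TO 1 to 4. TO 2 and TO 3 were above 3 of the 4 controls. The log2 fold change of -0.11 (SE 0.15) was within its SE and lay above zero when control 2 or TO 4 was left out, at 0.03 and 0.02. It was -0.21 without TO 2 and -0.18 without control 1.

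Cldn7 (chromosome 11, 69964779 to 69967885, plus strand), which is known as a binding partner of Epcam, was at 45.4, 46.1, 33.7 and 29.4 CPM in controls 1 to 4 and at 31.1, 37.2, 26.9 and 35.8 CPM in TO 1 to 4. Controls 1 and 2 were above all TO lungs, and control 4 was below 3 of the 4 TO lungs. The log2 fold change was -0.27 (SE 0.20) in the 6 lungs and -0.23 (SE 0.19) in the 8 lungs. Leaving out 1 lung moved it to -0.46 without control 4, -0.13 without TO 3, -0.16 without control 2 and -0.18 without control 1.

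Cldn18 (chromosome 9, 99689461 to 99717267, minus strand) was at 556, 593, 484 and 434 CPM in controls 1 to 4 and at 259, 535, 483 and 450.5 CPM in TO 1 to 4. Apart from TO 1 the groups overlapped over most of their range, and the log2 fold change was -0.11 (SE 0.14) in the 6 lungs and -0.24 (SE 0.20) in the 8 lungs. Leaving out 1 lung moved it to -0.01 without control 2, -0.05 without TO 4, -0.07 without control 1, -0.17 without TO 2 and -0.23 without control 4. The 75 counts of TO 1 gave an interval of 203 to 324 CPM, below the levels of the other 7 lungs. TO 1 was the lowest of the 8 lungs for 5 of the 10 members. Genes that overlap Krt8 (Gm36026), Cldn3 (Wbscr25) and Cldn18 (Gm16004) held at most 41, 25 and 22 counts in a library.

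**Figure D3:**
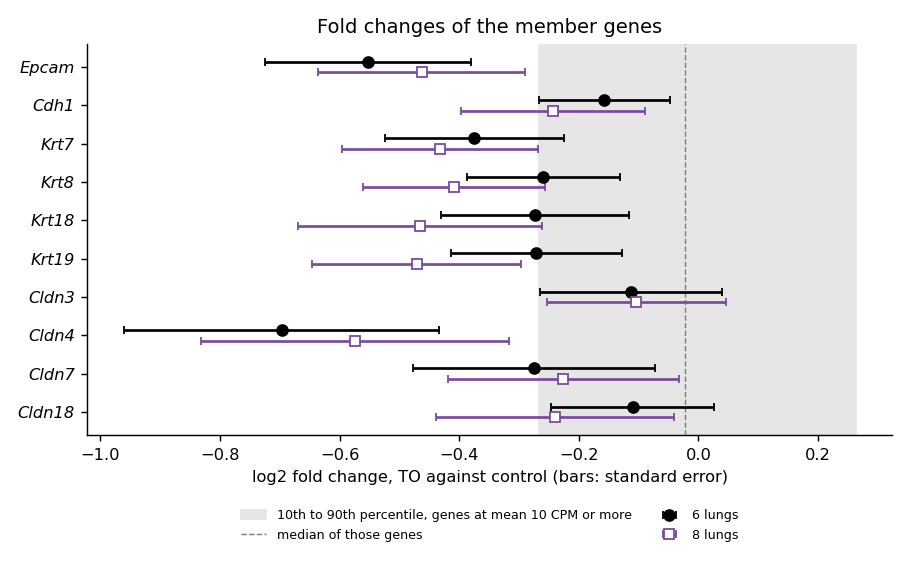
Log2 fold change of TO against control for each member, with its standard error as a bar, in the 6 lungs (black circles) and in all 8 (open squares); the gray band is the 10th to 90th percentile of genes at a mean of 10 CPM or more and the dashed line their median. All points lie below zero, and Epcam and Cldn4 lie farthest left in the 6 lungs.

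The members were also set beside all genes at a mean of 10 CPM or more, without matching on level. Of 10805 genes at a mean of 10 CPM or more in the 6 lungs, 54.9% were below zero, and the 10th percentile of their log2 fold changes was -0.27. Among the members, 6 of 10 were below that percentile, of which Krt18, Krt19 and Cldn7 were below it by less than their SE and Epcam had chosen the set. The median of the members was -0.42 in the 8 lungs, -0.35 in the 7 lungs without TO 1, and -0.18 in the 4 lungs left without control 1 and TO 4 (controls 2 and 4 against TO 2 and 3). In each of these sets all 10 members were below zero, against 53.2%, 52.0% and 50.7% of all genes, and 9 of 10 were when control 2 or TO 4 alone was left out, with Cldn3 above zero. In the 4 lungs, however, Cldn18, Cdh1 and Cldn3 were close to zero, at -0.0095, -0.03 and -0.05. Epcam and Cldn4 were at -0.70 and -0.82 there, and the other members between -0.23 and -0.13. The median of the keratins was -0.27 in the 6 lungs and -0.45 in the 8 lungs, and that of the claudins -0.19 and -0.23.

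Per kb of exon, the most abundant members in the 4 control lungs were Krt19 at 169 ± 36.5, Krt8 at 166 ± 24.3 and Krt18 at 153 ± 45.6 CPM per kb (SD, n = 4), which do not differ beyond their spread. Cdh1 at 125 ± 8.39, Cldn18 at 116 ± 16.1 CPM per kb followed, and Cldn3 spanned 92.3 to 120.5 CPM per kb in the 4 lungs, each overlapping the next. Epcam was at 70.8 ± 10.99, with a range of 55.9 to 82.5 that lies below that of Cldn3, and Krt7 at 38.6 ± 5.29 CPM per kb. Cldn7 and Cldn4 were lowest, at 19.8 ± 4.30 and 17.1 ± 4.06 CPM per kb, and overlapped. Exon length is the union over all transcripts of a gene, which lowers the value of genes with long rare isoforms.

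Across the 7 lungs other than TO 1, Cldn4 followed Epcam closely. The correlation of log2 CPM was r = 0.96 (Spearman's rho 1), which put Cldn4 at rank 8 of 10770 genes by likeness to Epcam, and r was 0.98 when TO 2 and TO 3, the lungs farthest from the Epcam median, were left out. These points share the group difference that chose Epcam and are described with no test. The other members were less like Epcam: r was 0.62 for Cldn7, 0.42 for Krt7, 0.29 for Cdh1, 0.17 for Krt8 and for Cldn18, 0.16 for Krt19, 0.0089 for Krt18 and -0.16 for Cldn3. Without TO 2 and TO 3 these values were unstable: r was 0.63 for Cdh1, 0.43 for Cldn18 and 0.22 for Cldn3, and below zero for Krt8 (-0.22), Krt19 (-0.43) and Krt18 (-0.48), while Cldn7 (0.53) and Krt7 (0.39) stayed near their values. The 3 broad simple keratins instead followed each other, with r of 0.98 for Krt18 and Krt19 and 0.96 for Krt8 with either. Krt7 was most like Cldn18 (r = 0.83) and Krt8 (r = 0.82).

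**Figure D4:**
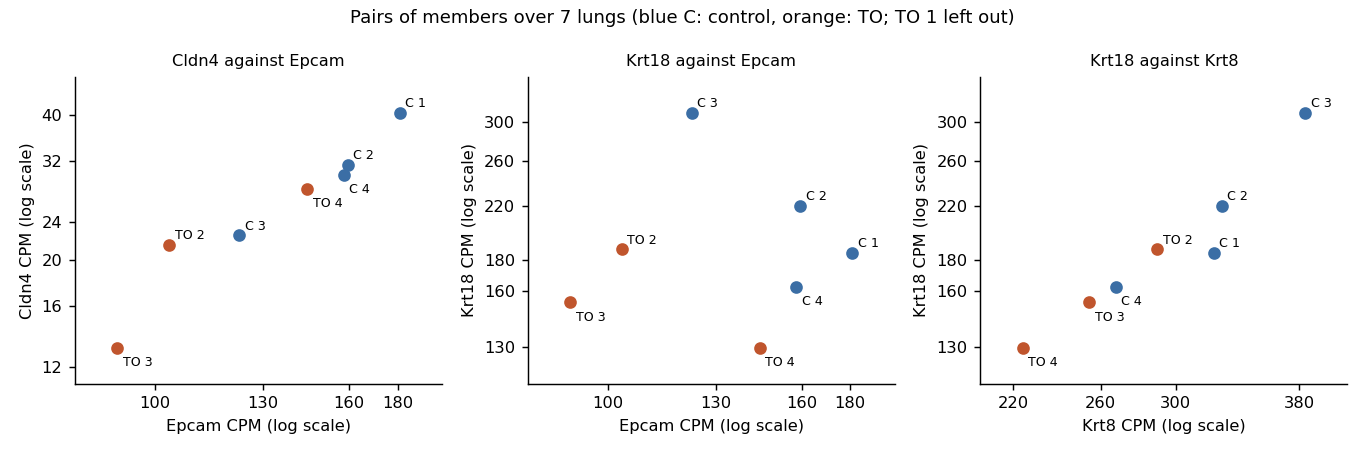
CPM of pairs of members in 7 lungs on log axes, each point a lung labeled C for control or TO with its number. Cldn4 against Epcam and Krt18 against Krt8 form rising lines (r of 0.96 each), whereas Krt18 against Epcam is scattered (r = 0.0089), with control 3 high in Krt18 alone.

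The gene outside the set that was most like Epcam was Cdh16, a kidney-type cadherin, with r = 0.99 and rho 1. Cdh16 was at 140.3, 134, 91.4 and 127 CPM in controls 1 to 4 and at 62.1, 82.3, 64.0 and 116 CPM in TO 1 to 4, the order of the lungs other than TO 1 being that of Epcam. The next were Ciao2a (r = 0.99), Arhgap19, Eml1, Mrpl27, Rad18 and Zc3h7b (r of 0.97 each), and Ube2c (r = 0.96), a mitotic ubiquitin-conjugating enzyme. Ube2c was at 98.6, 79.5, 36.8 and 82.1 CPM in controls 1 to 4 and at 37.5, 22.4 and 84.5 CPM in TO 2 to 4. Control 3 was low and TO 4 was near the controls in both genes, as in Epcam. TO 1, which was outside the measure of likeness, was low in Cdh16 but the highest of the 8 lungs in Ube2c, at 117 CPM, and in Ciao2a, Arhgap19 and Mrpl27.

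Other genes of epithelial junctions and keratin filaments were read from lists to see how far they moved with the members, and no gene of these lists passed an adjusted p of 0.1 in edgeR or DESeq2. Of 13 other claudins tested, 5 were lower and 8 higher in TO, with a median of 0.08 on the log2 scale. The most abundant, the endothelial claudin Cldn5, averaged 120 ± 18.9 CPM in the control lungs and 121 ± 60.3 CPM in the TO lungs (SD, n = 3 each). Of 16 other tight junction and polarity genes, 9 were lower, with a median of -0.02, and the scaffold gene Tjp1 had a log2 fold change of -0.04 (SE 0.13). Of 10 other adherens junction genes, 6 were lower, with a median of -0.07, and the catenin genes Ctnna1 and Ctnnb1, which link cadherins to actin, were at -0.06 (SE 0.11) and 0.02 (SE 0.11). The 10 desmosome genes were mostly higher, 7 of 10 with a median of 0.23. The 2 most abundant differed in direction: Dsp, the plakin that anchors keratin filaments, was at 0.24 (SE 0.24), and Ppl was at -0.10 (SE 0.10).

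Of 9 other keratins, 4 were lower and 5 higher, with a median of 0.05. The most abundant of them, Krt4 and Krt15, followed the libraries rather than the groups: Krt4 reached 149 CPM in control 1 and 134 CPM in TO 4 but at most 4.93 CPM in the other lungs. Of 14 other membrane and trafficking genes of epithelium, 10 were lower, with a median of -0.10, and Muc1 and Mal2 were each within their SE of zero. Of 14 epithelial transcription and splicing regulators, 9 were lower, with a median of -0.10, and Nkx2-1, the lung lineage factor, was at -0.20 (SE 0.16). Of 9 regulators and markers of mesenchymal transition, 5 were lower, with a median of -0.0028, and Vim was at -0.08 (SE 0.19). In the 6 lungs none of these medians was as far below zero as that of the members.

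With all 8 lungs several of these lists moved in the direction of the members, whose median was then -0.42. Other adherens junction genes were lower in 9 of 10 (median -0.21), tight junction and polarity genes in 12 of 16 (median -0.15), membrane and trafficking genes in 11 of 14 (median -0.25) and regulators in 10 of 14 (median -0.09). Other claudins were split 7 and 7 (median -0.06), mesenchymal transition genes 5 and 4 (median -0.08), and desmosome genes (7 of 10) and other keratins (7 of 9) were mostly higher, with medians of 0.24 and 0.38. The shift to lower values was not limited to epithelial lists, since endothelial genes were lower in 8 of 10 (median -0.23) and erythroid genes in 6 of 6 (median -0.34). The 8 lungs add control 3 and TO 1, the library with 270078 read pairs on genes. No test of the difference between the members and a list was made in either set of lungs.

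Genes of these lists that resembled Epcam were picked after their values were seen. Cdh3, or P-cadherin, had r = 0.92 with Epcam over 7 lungs and was at 32.2, 27.4, 18.7 and 33.9 CPM in controls 1 to 4 and at 16.1, 11.4 and 36.7 CPM in TO 2 to 4. Esrp1, which directs epithelial splicing, had r = 0.82 and was at 93.9, 79.9, 61.6 and 70.5 CPM in controls 1 to 4 and at 58.3, 60.3 and 61.6 CPM in TO 2 to 4. Cldn6, a claudin of early epithelium, had r = 0.74 and was at 44.1, 36.8, 1.85 and 32.9 CPM in controls 1 to 4 and at 9.87 and 5.78 CPM in TO 2 and TO 3, with TO 4 a little below control 4. In all 3 genes control 3 was the lowest control and TO 4 was not below it. Cldn1 (r = 0.75) shared this order, but Nectin2 (r = 0.87) and Evpl (r = 0.83), both more like Epcam than Esrp1 and Cldn6, did not. Their lowest control was control 4, with 115.2 CPM of Nectin2 and 54.0 CPM of Evpl, against 115.8 and 62.8 CPM for control 3. TO 4 was lower still, with 113.4 CPM of Nectin2 and 51.9 CPM of Evpl.

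Markers of epithelial cell types did not share one direction. Of the 9 AT1 markers tested, which include Cldn18, 6 were lower in the 6 lungs, with a median of -0.01, and 8 in the 8 lungs, with a median of -0.34. The 2 most abundant AT1 markers, Akap5 and Ager, were at -0.34 (SE 0.14) and -0.09 (SE 0.30) in the 6 lungs, where 3 of the 9 were higher. Of the 10 AT2 markers, 9 were higher in the 6 lungs (median 0.34) and 8 in the 8 lungs (median 0.13), and Sftpc, the surfactant protein C gene, was at 0.18 (SE 0.30). All 7 club and goblet markers were higher, with a median of 1.32 in the 6 lungs and 0.97 in the 8 lungs, and DESeq2 called 1 of them, Reg3g, in the 6 lungs. Reg3g was at 53.1 CPM in control 3, above TO 1, TO 2 and TO 4, and its log2 fold change was 2.28 in the 6 lungs and 1.15 in the 8 lungs. Of the 8 ciliated markers 7 were higher (median 0.11), of the 6 basal markers 5 (median 0.38), and of the 6 neuroendocrine markers 3 (median 0.12), among which DESeq2 called Chga in the 6 lungs. In the 8 lungs these numbers were 6 (median 0.07), 5 (median 1.03) and 4 (median 0.20). The basal genes Krt5, Krt14 and Trp63 were at 193, 51.8 and 41.4 CPM in TO 1. In the other lungs they were at most 24.3, 3.86 and 6.76 CPM. Ngfr and Aqp3 were also highest in TO 1, at 13.8 and 10.35 CPM, but Krt15 was not. The TO lungs were not alike in these markers: the AT2 sum was 21490 CPM in TO 2 and 17000 CPM in TO 3, above the 10550 to 16930 CPM of controls 1, 2 and 4, and 9610 CPM in TO 4, below them. TO 2 and TO 3, the lungs with the lowest Epcam, had the highest AT2 sums. TO 3 was only a little above control 2, at 16930 CPM, where Epcam was at 159.5 CPM. The shallow library TO 1, with Epcam at 110.4 CPM, had the lowest AT2 sum, 7177 CPM.

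**Figure D5:**
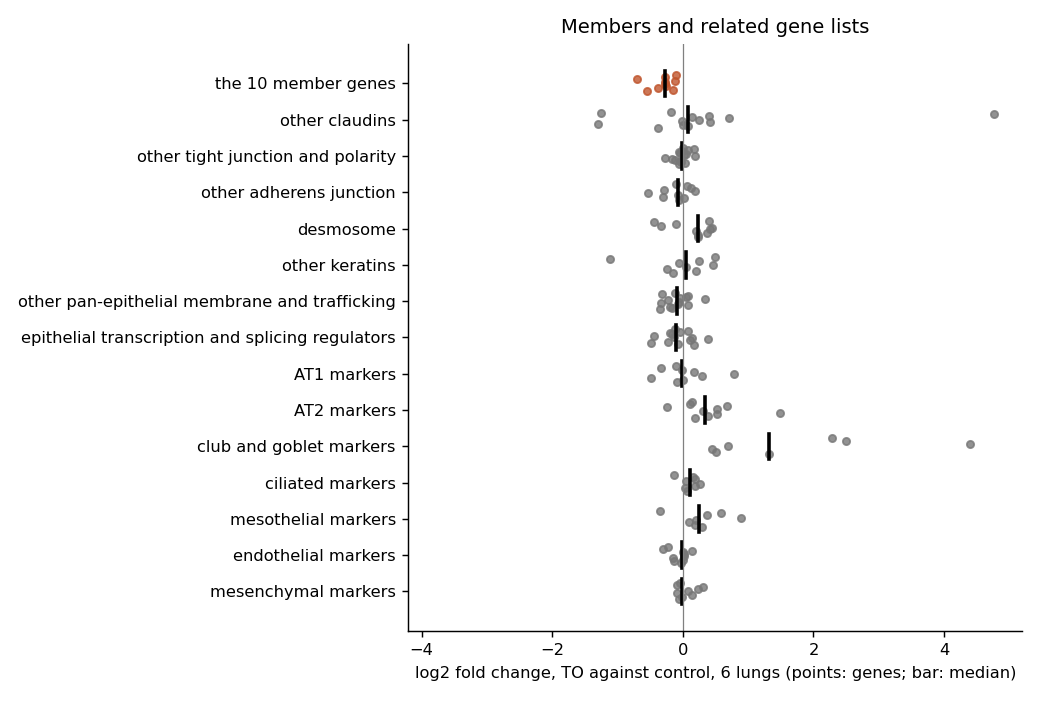
Log2 fold change of TO against control in the 6 lungs for each gene (points) of the member set and of related lists, with the median of each list as a bar. The members are all below zero with a median of -0.27, while the lists of other junction genes and other keratins spread on both sides of zero and AT2 and club markers lie mostly above it.

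Markers of cells other than epithelium moved with the groups in part. All 8 leukocyte genes were higher in TO (median 0.78), and their sum was 193 to 264 CPM in controls 1, 2 and 4 and 276 to 412 CPM in TO 2 to 4. All 8 cardiomyocyte and all 7 skeletal muscle genes were also higher (medians 1.12 and 1.26), with sums of 475 to 3788 against 2459 to 4762 CPM and of 22.4 to 135 against 149 to 306 CPM. Control 3, which is outside that comparison, overlapped the TO lungs in each of these sums. Its leukocyte sum of 305 CPM was above TO 4, its cardiomyocyte sum of 4819 CPM above TO 2 to 4, and its skeletal muscle sum of 174 CPM above TO 3. Of 8 mesothelial genes 7 were higher (median 0.25), with sums of 261 to 412 and 244 to 512 CPM. Endothelial and mesenchymal genes were split 5 and 5 and 5 and 4, with medians of -0.01 and -0.02, erythroid genes 3 and 3 (median 0.04), hepatocyte genes 3 and 3 (median -0.48) and the stratified and thymic epithelium genes 2 and 3 (median 0.05). In the 8 lungs the leukocyte, cardiomyocyte and skeletal muscle genes were again all higher (medians 0.71, 0.77 and 2.77) and the mesothelial genes were split 4 and 4. Endothelial genes were then lower in 8 of 10 (median -0.23) and erythroid genes in 6 of 6 (median -0.34), mesenchymal genes 5 and 4 (median -0.04), hepatocyte genes 3 and 3 (median -0.20), and all 5 stratified and thymic genes were higher (median 0.45). DESeq2 called none of the genes in these lists in the 6 lungs. The part of these cells in the members' lower levels was not tested.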

How the data were processed

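RNA from whole lungs of 4 control and 4 TO fetuses was sequenced by the authors. Aligned to mm10 (GRCm38) with STAR, the read pairs of each gene were tallied by the authors into raw counts, deposited without normalization, and the column of unstranded counts was used because the strand columns held 49.9% to 50.1% each. The version of STAR and the annotation are not given in the sources used here. Of 55385 gene IDs, 54487 were identical to those of GENCODE M21, from which symbols and coordinates were taken. Genes reaching 5 reads in at least 3 libraries were fitted with edgeR 4.0.16 in R 4.3.3 (TMM, quasi-likelihood, Benjamini-Hochberg adjustment over all genes, threshold 0.1), separately for the 6 and the 8 lungs. DESeq2 1.42.0, limma-voom (limma 3.58.1), other filters and scalings, single strand columns, blocks and lungs left out were alternatives. CPM used TMM factors of all 8 libraries, and log2 CPM a prior count of 2. Near-identical copies were sought with BLAST (blastn 2.17.0). The analysis was tested on simulated data with changes larger than those of any member, which does not show whether changes of the members' size would be called. The members and the 23 gene lists were chosen with earlier results of these data known. Genes named were the members, the 2 most abundant genes of a list, any list gene called, and the 8 genes most like Epcam (log2 CPM over 7 lungs, mean of 10 CPM or more), of which some are given as counts only, and others are said to have been chosen after their values were seen. Labels number the lungs within each group and do not say whether they came from different litters, so the SE measures the spread between these samples. Reads carried no molecular identifiers, so binomial intervals cover counting error only.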

Additional observations from a re-analysis of the deposited data

Results flagged for a closer look

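One member value stood apart from its group. Cldn3 was at 152 CPM in control 2 and between 116 and 118 CPM in the other 3 controls, a gap of 0.942 of the range of the 4 controls, above the limit that Dixon's test sets for 4 samples. It was the only value past its limit in 20 groups of 4 lungs (10 members in 2 conditions), and chance alone places about 1 in 20 groups past it. Without control 2 the log2 fold change of Cldn3 was 0.03.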

How the results depend on the processing

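Across 21 alternatives the log2 fold change of Epcam stayed below zero, from -0.77 to -0.37, and with 1 lung left out at a time it was -0.77 to -0.41. Epcam passed the adjusted threshold in edgeR in 1 alternative, without TO 4 (adjusted p = 0.0689), where 144 of 20801 genes (0.692%) passed. The question was chosen from this contrast, so that call supports nothing. The median of the members was between -0.43 and -0.17, and -0.37 to -0.17 with 1 lung left out. It moved by more than the spread between lungs in 1 alternative, to -0.43 with all 8 libraries and a block by the last digits of the specimen names. Of 189 values of the other 9 members, 187 stayed below zero, and Cldn3 was at 0.03 without control 2 and 0.02 without TO 4. The count of genes called was 0 in the main comparison, where 1123 had an unadjusted p under 0.05. It was 44 with DESeq2, 7 with DESeq2 and all 8 libraries, 40 without a filter, and 3 in the 4 lungs left without control 1 and TO 4, an alternative chosen after seeing the data. With 1 lung left out it was 0 to 144 (52 without control 4). The cause of these differences was not tested.

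With a replicate block by the number in the titles, 219 genes were called in the 6 lungs and 3 in all 8, none of them a member, and the medians of the members were -0.22 and -0.42. Among the 6 lungs only numbers 2 and 4 occur in both groups. Control 1 and TO 3, the lung with the lowest Epcam, each stand alone under their number. They add nothing to the blocked difference, which rests on controls 2 and 4 and TO 2 and 4. Under the block in the 6 lungs Epcam was at -0.37, Cldn4 at -0.32, Cldn3 at -0.22, Cldn18 at -0.04 and Cldn7 at -0.01. Lungs with the same number deviated together with r of 0.0664, 0.231, 0.242 and 0.126 for numbers 1 to 4 over 16004 genes. Controls 2, 3 and 4 were each most like the TO lung of their own number, a hint from the data that these numbers may mark pairs. Control 1 was most like TO 4 (r = 0.167) and TO 1, the shallow library, most like control 4 (r = 0.0754). The labels do not say what the numbers mark, and the comparison without the block was kept.

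Depth limits TO 1 most, where Cldn4 rests on 6 counts and Cldn7 on 9. With 3 lungs a group, the SE of the members (0.11 to 0.26) exceeds the fold change of Cldn3 and of Cldn18. Whole-lung RNA does not separate cell number from mRNA per cell.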
